A study of Mus musculus with 10 samples.

Results

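The PGC-1 coactivators and the regulators of mitochondrial biogenesis that work with them were described in the tibialis anterior (TA) muscle of tumor-bearing and tumor-free mice. The 10 genes were taken by name: the coactivators Ppargc1a and Ppargc1b, the muscle co-regulator Perm1, the nuclear receptors Ppara, Ppard, Esrra and Esrrg, the nuclear respiratory factors Nrf1 and Gabpa, and the mitochondrial transcription factor Tfam. They were 10 of the 39179 genes listed in the count data and 10 of the 12690 genes with enough reads to be tested, so no member was lost to the filter on low counts.

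Total RNA of the TA, a fast-twitch glycolytic muscle, was sequenced from 4 Control mice and 6 mice carrying Lewis Lung Carcinoma (LLC), a transplantable mouse lung tumor used as a model of cancer cachexia. LLC mice received tumor cells under the skin of both flanks and Control mice received PBS; no mouse carried an engineered allele. The labels of the samples give C57BL/6J mice at 10 weeks of age with 23 days of tumor, whereas the design text gives C57BL/10 male mice, 8 weeks old at the start and studied at day 22, and which is right could not be settled. Each library is 1 mouse, and the 6 LLC mice were survivors of the whole period, which limits the group to animals that lived that long.

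PGC-1α (gene Ppargc1a) and PGC-1β (Ppargc1b) do not bind DNA themselves. They dock on transcription factors, among them the estrogen-related receptors ERRα (Esrra) and ERRγ (Esrrg) and the fatty acid sensors PPARα (Ppara) and PPARδ (Ppard), and increase transcription of genes for respiration and fat oxidation. The nuclear respiratory factors NRF-1 and GABP switch on nuclear genes of the respiratory chain and Tfam, whose product packages and transcribes mitochondrial DNA, and exercise and cold are the classical inducers of Ppargc1a in muscle. PERM1 is a muscle-specific partner of PGC-1 and ERR.

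The libraries held 16693209 to 21303084 counts, of which 3 counts make up 0.141 to 0.180 CPM when set against the raw total. All other CPM values here are relative to the TMM-adjusted library size. All 10 members lay far above that limit, the lowest single value being 16 counts, for Ppara in LLC 5. The 7 myofibre markers summed to 106886 to 116132 CPM in Control and 76060 to 115771 CPM in LLC and outweighed every other list, and the brown fat marker Ucp1 was at 0 in all 10 libraries. The share of counts from the mitochondrial genome was 28.4 to 30.7% in Control and 22.0 to 27.9% in LLC. LLC 1 had the lowest share and the fewest counts of all mice. Its Acta1 (8729 CPM) and Myh4 (27275 CPM) were also the lowest, but not its Myh1 or Ttn. Markers of other cell types differed between the groups: all 5 fibroblast markers fell (summed level 237 to 304 CPM in Control, 46.8 to 80.1 CPM in LLC), all 5 tested of 7 neutrophil markers rose (0.689 to 1.88 CPM against 29.8 to 63.7 CPM, Elane at 0 throughout), and 3 of 5 erythroid markers rose (58.8 to 83.4 CPM against 88.7 to 144 CPM). Single markers of other lists fell past the threshold used below. Myl2 of 5 slow-fibre markers had a log2 fold change of -1.66 (list 28.2 to 37.0 CPM against 23.8 to 44.0 CPM). Mrc1 of 5 tested of 6 macrophage markers had -1.05 (11.9 to 15.9 CPM against 7.94 to 12.1 CPM). Csf1r (-0.73), C1qa (-0.50) and Cd163 (-0.31) of that list were also negative, and Cd68 (0.50) was positive. Kdr of 5 endothelial markers had -1.13 (243 to 316 CPM against 229 to 269 CPM). Cdh5 (-0.37) and Tie1 (-0.35) also had every LLC mouse below every Control mouse, whereas Pecam1 (0.31) and Tek (0.09) were positive. The part of these cell types in the values below was not tested. In whole muscle fewer cells of a type and less RNA per cell cannot be told apart.

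Ppara and Tfam held the only motif matches among the members' promoters that were searched. Perm1 and Esrra had the smallest p values of the 10 members, so short stretches of these 4 promoters are given here. All are RefSeq sequences of build GRCm38.p6, read 5′ to 3′ on the gene's strand, with a motif match in capitals. Perm1 (chr4:156215677-156215867, plus strand) and Esrra (chr19:6921814-6922058, minus strand) are shown upstream of the annotated gene, and Ppara (chr15:85735735-85735764, plus strand) and Tfam (chr10:71238073-71238102, minus strand) are shown as the 30 bases around the match.
Perm1: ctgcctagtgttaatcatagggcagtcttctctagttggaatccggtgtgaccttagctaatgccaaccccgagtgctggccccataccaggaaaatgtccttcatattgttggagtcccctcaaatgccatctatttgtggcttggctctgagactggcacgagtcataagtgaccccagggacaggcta
Esrra: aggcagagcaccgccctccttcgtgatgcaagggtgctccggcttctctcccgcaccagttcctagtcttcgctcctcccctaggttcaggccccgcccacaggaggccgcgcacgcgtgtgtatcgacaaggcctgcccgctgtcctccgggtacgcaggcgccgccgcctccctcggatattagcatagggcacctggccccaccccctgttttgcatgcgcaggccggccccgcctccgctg
Ppara: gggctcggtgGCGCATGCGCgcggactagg
Tfam: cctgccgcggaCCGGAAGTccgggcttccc

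Both strands of the 300 bases around each start (250 before, 50 after) were searched for 6 motifs, none of which contains another. Only exact matches to a whole motif were counted, so partial or variant sites were not looked for. The start is the RefSeq start of the promoter table, which for Ppara and Tfam lies inside the longer annotated gene span given with their values, so these matches lie inside that span too. The NRF-1 motif, as given by the capitals in the Ppara sequence with any base at its sixth letter, was found in the Ppara promoter 31 bases upstream of this RefSeq start, and 4.6% of all 32851 promoters of that length hold it. The GABPA motif CCGGAAGT was found in the Tfam promoter 47 bases upstream of its RefSeq start, and 3.89% of all promoters hold it. The ERR motif TCAAGGTCA (0.423% of promoters) and the CRE motif TGACGTCA (1.79%) were in none of the 13 promoters searched, from 9 members. Nor were the PPAR response element (0.0396%) and the E-box CACGTG (7.15%). Neither Perm1 nor Esrra held any of the 6 in this window. Promoters on chr18 were left out, so that of Ppargc1b was not searched.

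Comparison of LLC with Control asked which of these regulators were changed in cachectic muscle. None of the 10 passed the threshold of a Benjamini-Hochberg adjusted p of 0.05 and a 1.5-fold change in edgeR's quasi-likelihood test, where 5.63% of all tested genes did (3.99% lower, 1.65% higher in LLC). At an unadjusted p of 0.05, 3 members passed (Perm1, Esrra and Esrrg), against 27.4% of all tested genes; all 3 were lower in LLC, as were 14.6% of all tested genes at that p. The same 3 were the members whose LLC values all lay below the lowest Control value, a pattern held by 9.57% of all tested genes. No member had every LLC value above the highest Control value, which 6.40% of all tested genes had. Mean differences were negative for 7 members and positive for 3, with a median log2 fold change of -0.45 against 0.00 over all tested genes.

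Ppargc1a (chr5:51454250-51567726, minus strand) stood at 37.9, 44.9, 40.1 and 44.3 CPM in Control 1 to 4. In LLC its lowest value was 14.7, its median 32.5 and its highest 54.5 CPM. LLC 1 lay above every Control mouse and the other 5 LLC mice lay below every Control mouse, LLC 5 being the lowest and LLC 6 the next. The mean of 41.8 ± 3.36 CPM in Control (SD, n = 4) and 31.6 ± 13.7 CPM in LLC (SD, n = 6) gave a log2 fold change of -0.40 ± 0.28 (SE; 95% interval -1.01 to 0.20; edgeR adjusted p = 0.348). Without LLC 1 the log2 fold change was -0.63 ± 0.20 (edgeR adjusted p = 0.0583), and without LLC 5 it was -0.26 (edgeR adjusted p = 0.468).

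Ppargc1b (chr18:61298136-61400431, minus strand), the closest relative of Ppargc1a, was expressed at a lower level: 7.04, 8.49, 6.33 and 8.66 CPM in Control 1 to 4. The LLC values ran from 1.65 CPM through a median of 4.92 to 7.46 CPM. Here LLC 1 was the lowest mouse and LLC 4 the highest, 4 LLC mice lay below every Control mouse, and the groups overlapped through LLC 2 and LLC 4. The log2 fold change was -0.73 ± 0.34 (SE; 95% interval -1.46 to 0.01; edgeR adjusted p = 0.185).

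The coactivators therefore stood at opposite ends of their LLC ranges in the same mouse. The log2 ratio of Ppargc1a to Ppargc1b was 2.41, 2.39, 2.64 and 2.34 in Control 1 to 4 and 4.96 in LLC 1, while the other 5 LLC mice lay between 2.04 and 2.69. The group means were 2.45 ± 0.14 and 2.80 ± 1.09 (SD, n = 4 and 6), a difference of 0.36 that an exact permutation test did not separate from 0 (two-sided p = 0.848, adjusted p = 0.848 over 3 ratios; 210 splits allow a smallest p of 0.00952). Without LLC 1 the difference was -0.07.

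Perm1 (chr4:156215868-156221307, plus strand) had the largest log2 fold change of the 10 in either direction. Control 1 to 4 held 370.4, 358.5, 401 and 390.2 CPM, a coefficient of variation of 5.08%. LLC mice held 43.1 CPM at the lowest, 180 CPM at the median and 281 CPM at the highest. Every LLC mouse lay below every Control mouse; LLC 1 kept 11.4%, LLC 5 25.2% and LLC 6 36.2% of the Control mean. The means of 380 ± 19.3 and 170 ± 92.3 CPM (SD, n = 4 and 6) gave a log2 fold change of -1.16 ± 0.39 (SE; 95% interval -2.02 to -0.30), which is 2.24-fold lower but missed the threshold (edgeR adjusted p = 0.0958). Perm1 was called lower by DESeq2 (adjusted p = 0.0343, 8.31% of tested genes called, 5.24% lower), by limma voom with sample weights (adjusted p = 0.00858, 7.86% called, 5.69% lower), and by edgeR without LLC 1, where the log2 fold change was -0.95 (adjusted p = 0.0222, 7.65% called, 5.37% lower).

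**Figure D1:**
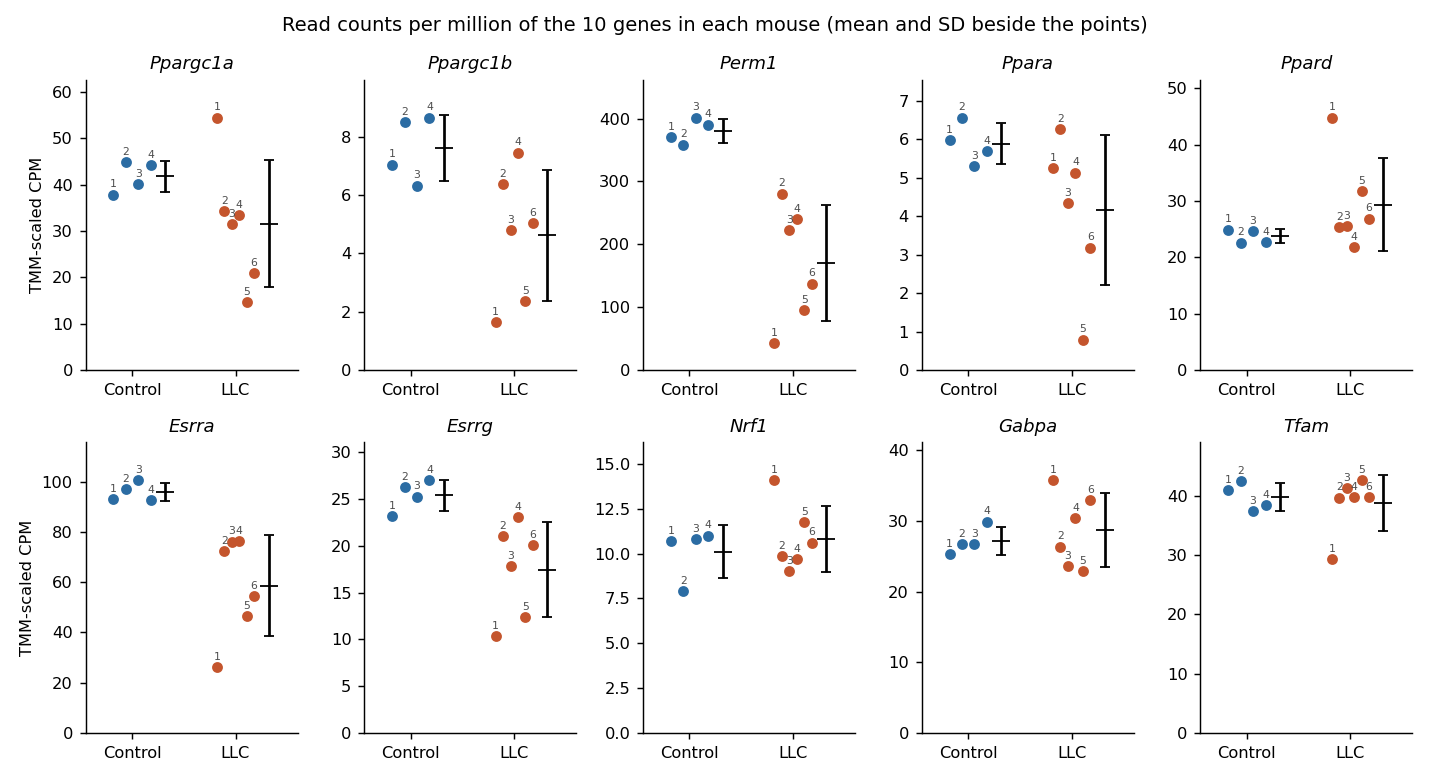
CPM (TMM-scaled, linear axis from 0) of each of the 10 regulators in every library, with 1 numbered point per mouse for 4 Control (blue) and 6 LLC mice (orange) and the mean and SD of each group beside the points. Perm1, Esrra and Esrrg have every LLC point below every Control point. LLC 1 is the highest point for Ppargc1a, Ppard, Nrf1 and Gabpa, and the LLC points spread more widely than the Control points.

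Esrra (chr19:6910977-6921813, minus strand) encodes ERRα, the orphan receptor through which PGC-1α acts on respiratory chain genes. Its Control values were 93.1, 96.9, 100.5 and 92.7 CPM, and its LLC values ran from 26.2 through a median of 63.4 to 76.2 CPM. Every LLC mouse lay below every Control mouse, and LLC 1, LLC 5 and LLC 6 were the 3 lowest, in the same order as for Perm1. Its log2 fold change was -0.71 ± 0.24 (SE; 95% interval -1.24 to -0.18; edgeR adjusted p = 0.0977), and without LLC 1 it was -0.55 (edgeR adjusted p = 0.0186, just under the fold threshold). The annotated exons of Esrra share 73 bases, 1.66% of their length, with Trmt112 on the opposite strand, and 91 bases with Mir6990, which had 0 counts.

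Esrrg (chr1:187608791-188214885, plus strand), the ERR linked to oxidative fibers, stood at 23.2, 26.3, 25.3 and 27.0 CPM in Control 1 to 4. Its LLC values ran from 10.4 through a median of 19.0 to 23.1 CPM. The highest LLC mouse, LLC 4, lay just under the lowest Control mouse, so the groups were separate by a narrow margin. LLC over Control came to a log2 fold change of -0.54 ± 0.20 (SE; 95% interval -0.98 to -0.11; edgeR adjusted p = 0.115). The log2 ratio of Esrra to Esrrg was 1.91 ± 0.10 in Control and 1.71 ± 0.29 in LLC (SD, n = 4 and 6), a difference of -0.20 that did not pass (exact permutation test, two-sided p = 0.248, adjusted p = 0.371), and it was -0.13 without LLC 1.

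Ppara (chr15:85734983-85802819, plus strand), the receptor of fasting and fat oxidation, was among the least expressed: 5.98, 6.57, 5.30 and 5.70 CPM in Control 1 to 4. LLC values ran from 0.793 CPM through a median of 4.74 to 6.27 CPM. LLC 5 stood apart at 13.5% of the Control mean, 16 counts in all, while LLC 2 lay inside the Control range and the other 4 lay just below it or lower. The log2 fold change was -0.50 ± 0.37 (SE; 95% interval -1.31 to 0.30; edgeR adjusted p = 0.381), and -0.28 without LLC 5.

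Ppard (chr17:28232700-28301474, plus strand), a PPAR abundant in muscle, had a mean difference of the other sign. Control 1 to 4 held 24.9, 22.6, 24.7 and 22.7 CPM, and LLC mice ran from 21.8 through a median of 26.2 to 44.8 CPM. LLC 1 was the highest at 189% of the Control mean and LLC 5 the next at 134%, 5 LLC mice lay above every Control mouse, and LLC 4 lay below all of them. Its log2 fold change was 0.31 ± 0.18 (SE; 95% interval -0.08 to 0.69; edgeR adjusted p = 0.266), and 0.15 without LLC 1.

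The balance of these PPARs had the smallest p of the 3 ratios. The log2 ratio of Ppara to Ppard was -2.0 ± 0.18 in Control and -2.97 ± 1.16 in LLC (SD, n = 4 and 6). LLC 5 reached -5.15, LLC 1, LLC 3 and LLC 6 also lay below every Control mouse, and LLC 2 and LLC 4 lay within the Control range. The difference of -0.98 did not pass (exact permutation test, two-sided p = 0.0571, adjusted p = 0.171), and it was -0.54 without LLC 5.

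**Figure D2:**
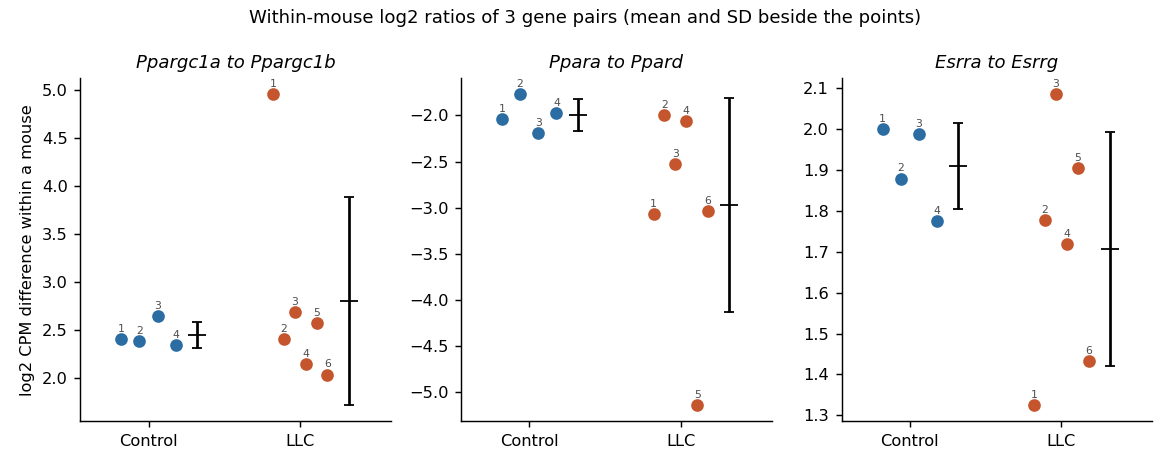
Log2 ratio of CPM within each library for Ppargc1a to Ppargc1b, Ppara to Ppard and Esrra to Esrrg, with 1 numbered point per mouse for 4 Control (blue) and 6 LLC mice (orange) and the mean and SD of each group beside the points; the axes of the 3 panels differ. LLC 1 is far above the others at 4.96 for the coactivator pair, and LLC 5 far below at -5.15 for the PPAR pair.

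The nuclear respiratory factors and Tfam differed little between the groups. Nrf1 (chr6:30047988-30153458, plus strand) held 10.7, 7.90, 10.8 and 11 CPM in Control 1 to 4 and 9.04, 10.3 and 14.1 CPM at the lowest, median and highest of LLC. LLC 1 and LLC 5 lay above the Control range and the other LLC mice lay within it, and Control 2 was the lowest of all 10 mice. On the log2 scale the fold change was 0.10 ± 0.14 (SE; 95% interval -0.21 to 0.42; edgeR adjusted p = 0.657).

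Gabpa (chr16:84834925-84863779, plus strand), the DNA-binding subunit of GABP, held 25.3, 26.7, 26.8 and 29.9 CPM in Control and 22.9, 28.4 and 35.7 CPM at the lowest, median and highest of LLC. LLC mice lay on both sides of the Control range, 3 above and 2 below it. The log2 fold change was 0.08 ± 0.13 (SE; 95% interval -0.21 to 0.37; edgeR adjusted p = 0.720). Its exons share 397 bases, 6.98% of their length, with Atp5j on the opposite strand, a gene with 3572 to 8224 counts per library against 408 to 695 for Gabpa. The default settings of HTSeq given in the methods assign reads by strand; whether the deposited counts followed them was not tested.

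Tfam (chr10:71225464-71238280, minus strand) held 40.9, 42.6, 37.5 and 38.5 CPM in Control and 29.4, 39.8 and 42.6 CPM at the lowest, median and highest of LLC. LLC 1 was alone below the Control range, and the remaining LLC mice lay in it or at its upper edge. LLC over Control came to a log2 fold change of -0.04 ± 0.11 (SE; 95% interval -0.27 to 0.19; edgeR adjusted p = 0.83), and it was 0.04 without LLC 1. The interval leaves room for a change of at most 0.27 on the log2 scale, the narrowest of the 10.

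**Figure D3:**
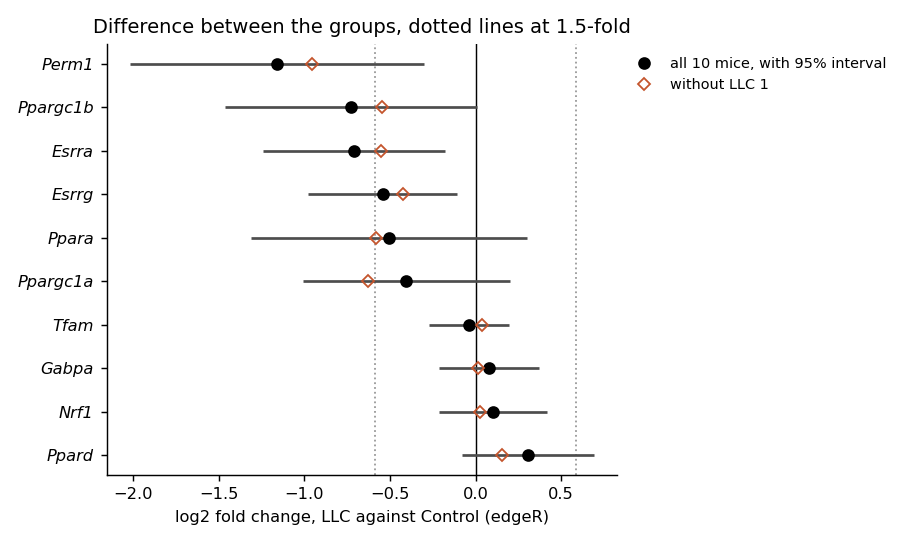
Log2 fold change of LLC over Control from edgeR for each regulator (black points, bars for the 95% interval; diamonds, the value without LLC 1), with dotted lines at 1.5-fold. Perm1 lies farthest from 0 at -1.16, and Tfam, Gabpa and Nrf1 lie nearest to it.

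Levels were also set per kilobase of exon (RPKM), the scale on which genes can be ranked against each other. In Control, Perm1 was the most abundant at 97.4 ± 4.95 RPKM (SD, n = 4), followed by Esrra at 21.8, Tfam at 8.98, Ppargc1a at 6.34, Gabpa at 4.77, Esrrg at 4.10, Ppard at 3.16, Ppargc1b at 1.91, Ppara at 1.53 and Nrf1 at 0.983. Neighbors in this order had separate ranges over the 4 mice, except Ppargc1b and Ppara, whose ranges overlapped. In LLC the first 3 and the last 3 kept their places, Gabpa (5.04 RPKM) stood above Ppargc1a (4.79) and Ppard (3.91) above Esrrg (2.81). Perm1 remained the most abundant at 43.6 ± 23.7 RPKM (SD, n = 6).

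The LLC mice differed among themselves more than the Control mice for all 10 regulators. On the log2 CPM scale the LLC group had the larger SD for 10 of 10 members, as it was for 85.1% of all tested genes, and the median ratio of LLC to Control SD was 4.83 for the members and 2.05 over all tested genes. For Perm1 the SD was 0.07 in Control and 1.02 in LLC, and for Esrra 0.05 and 0.60. Nrf1 was at the other end, with 0.23 in both groups. LLC 5 had the lowest median over the 10 members, -1.04 on the log2 scale from the Control mean, and LLC 4 the nearest to Control at -0.13.

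Perm1 and Esrra followed each other across mice, and Ppargc1a joined them apart from a single animal. After each group's mean was subtracted, log2 CPM of Perm1 was compared with that of other members over the 10 samples. Its Pearson r was 0.983 with Esrra, 0.919 with Ppargc1b, 0.901 with Esrrg and -0.935 with Ppard. Leaving out LLC 1 weakened each of these, to 0.951, 0.820, 0.779 and -0.778. With Ppargc1a the r was -0.153, and 0.966 without LLC 1, the mouse with the highest Ppargc1a and the lowest Perm1, Esrra, Esrrg and Ppargc1b. Likewise Ppargc1a had r = -0.241 with Esrra over 10 samples and 0.954 without LLC 1, while its r with Ppara was 0.846 and 0.940. These values are descriptions: all genes share the same 10 libraries, and the LLC mice spread more than the Control mice.

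**Figure D4:**
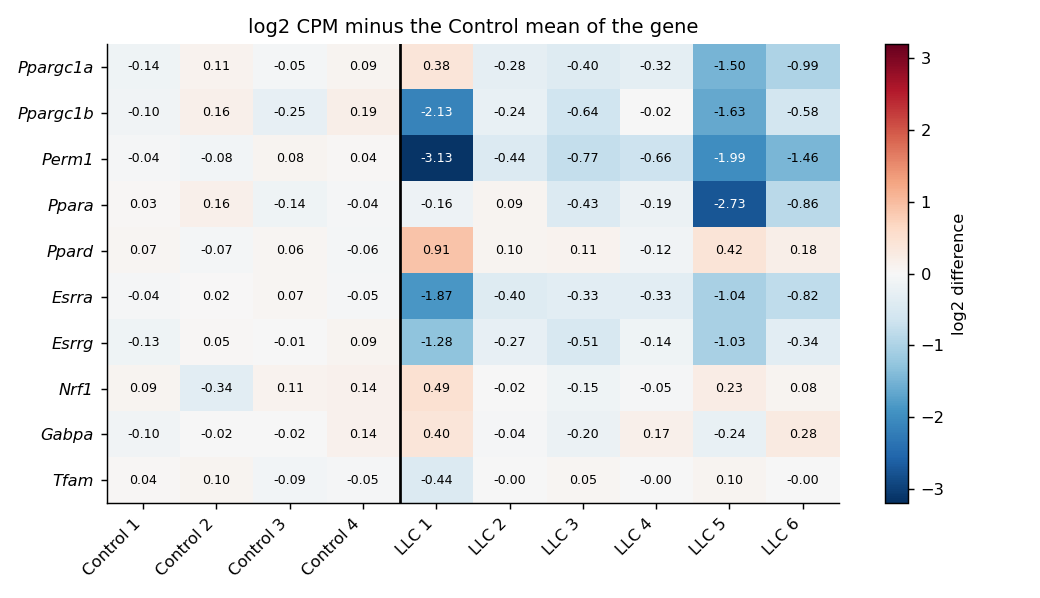
Log2 CPM of each regulator in each library minus its Control mean, as color with the value written in each cell (rows are genes, columns are the 4 Control and 6 LLC mice). LLC 1 is the highest LLC mouse for Ppargc1a, Ppard, Nrf1 and Gabpa and the lowest for Perm1, Esrra, Esrrg, Ppargc1b and Tfam. LLC 5 is low for Perm1, Esrra, Esrrg and Ppargc1b, and for Ppargc1a and Ppara as well.

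Of the 10384 genes with an average log2 CPM of at least 1, those whose profile was most like Perm1 by the same measure were Dlat, a subunit of the pyruvate dehydrogenase complex (r = 0.993), Ltbp4, which binds latent TGF-β in the matrix (0.993), the muscle potassium channel gene Kcna7 (0.992), Qrsl1, which serves mitochondrial glutaminyl-tRNA synthesis (0.991), and the calcineurin regulator Rcan2 (0.990). Without LLC 1 these stood at 0.973 to 0.985. Ltbp4 fell in LLC (log2 fold change -1.47, edgeR adjusted p = 0.00107), and the other 4 did not pass. The 5 most like Ppargc1a were Acad11, an acyl-CoA dehydrogenase (0.970), the interferon-induced GTPase gene Gbp4 (0.963), the phosphatase gene Ptpn11 (0.962), Fads6 (0.958) and Mcur1, a regulator of mitochondrial calcium uptake (0.958), which stood at 0.924 to 0.963 without LLC 1. None of these 5 passed the threshold.

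Genes around the regulators were counted in 9 lists of 141 genes, of which 137 were tested. 2 rose and 1 fell, 2.19% of those tested against 5.63% of all tested genes, and their median log2 fold change was -0.02 against 0.00. None of the 13 genes in the list of co-regulators, such as acetyltransferases, deacetylases and repressors of PGC-1, passed (median 0.06). The smallest p value in this list belonged to Sirt3 (-0.86, edgeR adjusted p = 0.0528). Its product is a mitochondrial deacetylase rather than a nuclear co-regulator of PGC-1. The next belonged to Pprc1, the third member of the PGC-1 family (0.47, edgeR adjusted p = 0.0787). Nor did any of the 27 genes of upstream signals pass (median 0.04), led by the AMPK subunit gene Prkag2 (-0.998, edgeR adjusted p = 0.0835) and the p38 kinase gene Mapk11 (0.43, edgeR adjusted p = 0.130).

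None of the 13 tested partner nuclear receptors passed (median -0.20). The smallest p values belonged to Esrrb, the third estrogen-related receptor (-0.74, edgeR adjusted p = 0.0741), and to Nr4a3, an orphan receptor that exercise induces in muscle (-0.91, edgeR adjusted p = 0.121).

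In the list of PPAR and ERR targets of fat use, 2 of 19 tested rose and none fell (median 0.09). Pdk4, the kinase that shuts pyruvate dehydrogenase when fat is burned, held 604, 375, 640 and 649 CPM in Control and 580, 1272 and 2009 CPM at the lowest, median and highest of LLC. All LLC mice but LLC 2 lay above every Control mouse, with a log2 fold change of 1.23 ± 0.33 (SE; edgeR adjusted p = 0.0480). Acot2, a mitochondrial acyl-CoA thioesterase, held 10.4, 6.86, 9.73 and 8.60 CPM in Control and 9.88, 17.3 and 31.4 CPM in LLC, again with LLC 2 alone inside the Control range (log2 fold change 1.11 ± 0.30, SE; edgeR adjusted p = 0.0459). LLC 1 and LLC 5 were the highest for both.

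The 18 listed ERR and NRF targets of respiration, which hold genes of the respiratory chain, ATP synthase and the citrate cycle together with Mb (myoglobin), Ckmt2 (mitochondrial creatine kinase), Slc25a4 (an ADP/ATP carrier) and Vdac1 (an outer membrane channel), all had negative log2 fold changes (median -0.48), and 16 had every LLC mouse below every Control mouse, against 9.57% of all tested genes. None passed the threshold. Their summed level was 21903 to 22742 CPM in Control and 9939 to 19284 CPM in LLC, without overlap. Cycs, cytochrome c, had a log2 fold change of -0.58 (edgeR adjusted p = 0.0693) and Cox5b, of complex IV, -0.47 (edgeR adjusted p = 0.0810).

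In the other lists only 1 gene passed. Of 6 tested further muscle genes that PGC-1α is known to raise (median -0.57), Metrnl, a secreted muscle factor, fell: it held 2.49, 1.98, 2.49 and 1.37 CPM in Control and 0.992, 1.26 and 1.39 CPM in LLC, a log2 fold change of -0.77 ± 0.19 (SE; edgeR adjusted p = 0.0330). Its groups overlapped through Control 4 and LLC 3, at a low level. None of 23 tested genes of mitochondrial DNA maintenance and transcription passed (median 0.06), the smallest p values being those of the elongation factor gene Tefm (-0.34, edgeR adjusted p = 0.0715) and the terminator gene Mterf2 (-0.82, edgeR adjusted p = 0.0947). None of 11 genes of mitochondrial fusion and fission passed (median -0.29). The smallest p values there were those of Mtfp1 (-0.81, edgeR adjusted p = 0.0748) and Mief2 (-0.51, edgeR adjusted p = 0.0916). Nor did any of 7 genes listed beside the nuclear respiratory factors pass (median 0.04). This list holds GABP subunits and other transcription regulators, not all of them partners of these factors. Its smallest p values were those of Tfeb (0.21, edgeR adjusted p = 0.168) and Yy1 (0.36, edgeR adjusted p = 0.206).

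The calls of Pdk4, Acot2 and Metrnl were lost when certain single libraries were left out. The adjusted p of edgeR then ran from 0.0144 to 0.137 for Pdk4 (lost without any of Control 1 to 4, LLC 3, LLC 5 or LLC 6), from 0.0177 to 0.133 for Acot2 (lost without any of Control 1 to 4, LLC 5 or LLC 6) and from 0.0135 to 0.121 for Metrnl (lost without Control 1, 2 or 3 or LLC 4, 5 or 6).

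**Figure D5:**
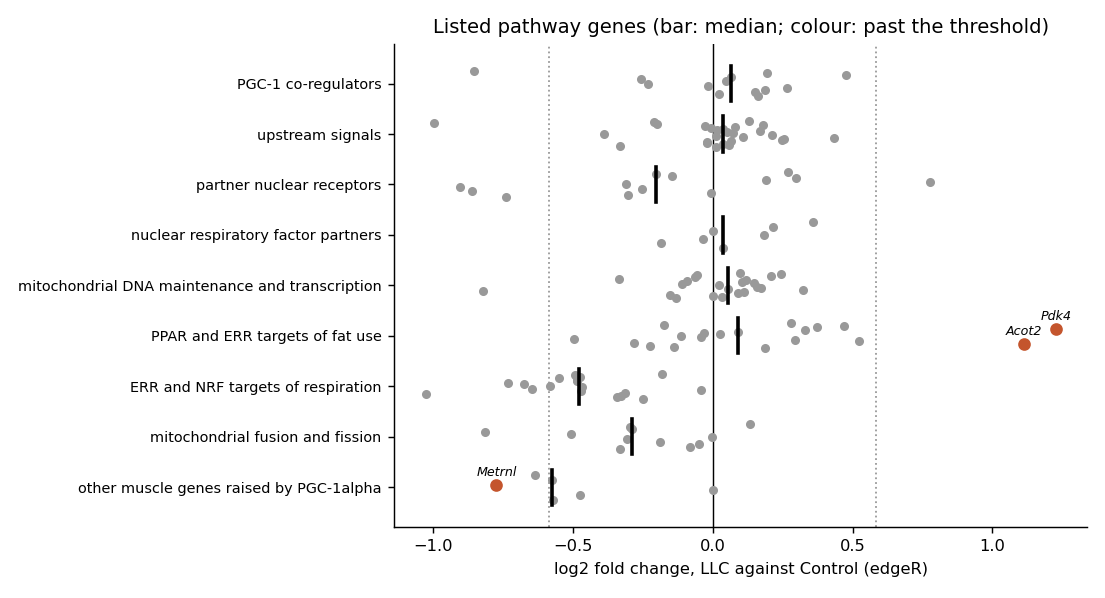
Log2 fold change of LLC over Control from edgeR for every tested gene (gray points) of 9 lists around the regulators, with a bar at each list's median, orange named points for the 3 genes past the threshold and dotted lines at 1.5-fold. All 18 respiration genes lie below 0, with a median of -0.48, while the medians of the lists of co-regulators, upstream signals and mitochondrial DNA maintenance lie between 0.04 and 0.06.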

How the data were processed

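Per the study's methods, TA libraries (stranded total RNA, paired-end, 1 lane) were aligned by the authors with TopHat2 to mm10 and counted with HTSeq at default settings; the deposited values are raw read counts per Ensembl gene. The methods name RefSeq genes, whereas the files list Ensembl identifiers; the release is not given in the sources used here, and whether reads were counted by strand, the HTSeq default, was not tested. Small RNA libraries are not analysed here. Of 39179 genes, 37693 matched GENCODE M21, which gave positions. Counts were filtered (filterByExpr), scaled (TMM) and tested with edgeR 4.0.16 (quasi-likelihood, group only); DESeq2 1.42.0 and limma 3.58.1 in R 4.3.3 were alternatives. Log2 CPM used a prior count of 2. Ratios of member pairs were tested by exact permutation with scipy 1.17.1.

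The members and lists were chosen with earlier results of these data known. All members were named; from each list, up to 2 genes with the largest rise and 2 with the largest fall past the threshold or, where none passed, the 2 with the smallest p; and the 5 genes most like Ppargc1a and like the member with the smallest adjusted p. A listed gene is not reported here and is left out of the list counts. Motifs were read from RefSeq promoters. Replicate numbers belong to different mice, so the block was an alternative.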

Additional observations from a re-analysis of the deposited data

Results flagged for a closer look

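In 13 measures (log2 CPM of the 10 members and the 3 ratios) the most distant sample of each group was compared with Dixon's critical value. In 5 of 26 groups it was exceeded, where chance flags about 1 in 20 independent groups, or 1.3 of 26. These groups are not independent: the ratios reuse member values and all measures come from the same 10 mice. An excess over chance can therefore not be read from the 5. LLC 5 was far below the other LLC mice for Ppara, at a log2 CPM of -0.15, and for the log2 ratio of Ppara to Ppard, at -5.15. LLC 1 was far below the other LLC mice for Tfam, at a log2 CPM of 4.88, and far above them for the log2 ratio of Ppargc1a to Ppargc1b, at 4.96. Control 2 was far below the other Control mice for Nrf1, at a log2 CPM of 3.00.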

How the results depend on the processing

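Of 180 alternative values of the 10 log2 fold changes, 174 kept their direction and side of the threshold, 3 passed it (Perm1 with DESeq2, with voom and without LLC 1) and 3 reversed around 0 (voom: Nrf1 -0.025, Tfam 0.012; Tfam -0.069 to 0.036 with 1 library left out, positive without LLC 1). Voom put Ppargc1a, Esrra and Esrrg under an adjusted p of 0.05 (0.0296, 0.00893 and 0.0265), each short of 1.5-fold. DESeq2 gave them adjusted p values of 0.373, 0.0535 and 0.0813. Members past the threshold numbered 0, and 1 with DESeq2 or voom, 2 at an unadjusted p of 0.05 with 1.5-fold and 0 to 1 with 1 library left out. All tested genes past it numbered 715, and 475 with at least 10 counts in every library, 1572 at that unadjusted p with 1.5-fold and 415 to 966 with 1 library left out (966 without LLC 1). Listed pathway genes numbered 3, and 1 with the count minimum, 12 with DESeq2, 10 with voom, 15 at that unadjusted p with 1.5-fold and 0 to 10 with 1 library left out: 0 without Control 1, 2 or 3, LLC 5 or LLC 6, 1 without Control 4, 7 without LLC 2 and 10 without LLC 1. The ratio differences ran from -0.075 (reversed, without LLC 1) to 0.51 for Ppargc1a to Ppargc1b, from -1.17 to -0.54 for Ppara to Ppard and from -0.28 to -0.13 for Esrra to Esrrg. With the replicate number as a replicate block, 112 genes, 0 members and 0 pathway genes passed; numbers mark different mice, and their deviations correlated at -0.08 to 0.13. Other scalings moved the median of all genes by at most 0.03. The causes were not tested. The 95% interval left out a 1.5-fold change in either direction for Nrf1, Gabpa and Tfam, and for no other member.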

Other observations

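The neighbors that share exonic bases with members were looked at after the values were seen. Atp5j, which encodes a subunit of ATP synthase and starts beside Gabpa, held 387, 406, 413 and 370.4 CPM in Control 1 to 4, and its LLC mean was 297 ± 64.4 CPM (SD, n = 6). All 6 LLC mice lay below every Control mouse, while Gabpa had LLC mice on both sides of the Control range. Its log2 fold change was -0.41 ± 0.16 (SE; edgeR adjusted p = 0.136), so it did not pass. Trmt112, an activator of methyltransferases whose end meets that of Esrra, stood at 7.67 ± 0.742 CPM in Control and 11.1 ± 3.24 CPM in LLC (SD, n = 4 and 6). Its log2 fold change was 0.53 ± 0.20 (SE; edgeR adjusted p = 0.126), of the opposite sign to that of Esrra, with 5 LLC mice above every Control mouse and LLC 1 and LLC 5 the highest, the 2 mice in which Esrra was lowest.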
